A study of Mus musculus with 4 samples.

Results

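Solute carriers form a large group of membrane transporters, and 161 genes named after this group were followed across 4 myeloid populations of a mouse tumour. Members were chosen by symbol, which had to begin with Slc and a digit, and by level, which had to reach 5 CPM (reads scaled to a common library size by the authors, 1000000 effective reads) in at least 1 of 4 libraries. The deposited table listed 205 such genes among 13976 genes, and 44 of the 205 stayed below 5 CPM in every library. Since the highest of the 4 levels selected each gene, that level is a description and not a result. Just inside the limit lay Slc5a6, with a highest level of 5.33 CPM, and Slc26a11, with 5.42 CPM. Just outside it lay Slc4a8, with 4.99 CPM, and Slc1a4, with 4.97 CPM, both in cDC1. By substrate, the members comprised 20 amino acid carriers, 9 of glucose and other hexoses, 3 of lactate, 24 of metals and heme, 3 of fatty acids and 4 of nucleosides or nucleobases. The others were 28 mitochondrial carriers, 19 of the Slc35 family, 21 of inorganic ions and 26 of peptides, vitamins and other organic solutes. A further 2 were named after a carrier without being one (Slc9a3r1 and Slc7a6os). The last 2 were left unclassified (Slc4a1ap and Slc36a3os), and their place among the members, which rests on the symbol, does not make them carriers.

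The RNA came from populations of myeloid cells of EO771 tumours, a transplantable mouse mammary cancer. They were a dendritic cell (DC) labelled CD103intCD11b+DC, called CD103int DC here, the conventional DC CD103+cDC1 and CD11b+cDC2, and macrophages, with 1 library each. Strain, age, the number of animals, the gates and whether any tumour had been given hetIL-15, the cytokine of the title, are not stated in the labels. With 1 library per population no difference could be set against replicate error, so no test was made, and each comparison describes a pair of libraries.

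Cells take up and release sugars, amino acids, lactate, metal ions, fatty acids and nucleosides largely through solute carriers, each with its own range of substrates. Some work alone, while others need a partner chain to reach the membrane. In phagocytes, carriers of the phagosome and lysosome move metals and products of digestion between the compartment and the cytosol.

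The columns corresponded to 55960049 (CD103int DC), 44425908 (cDC1), 44940500 (cDC2) and 63817502 (macrophage) estimated reads, and all members were above 0 in all 4. Among all 13976 listed genes, 10, 454, 19 and 20 stood at 0 in these libraries, in that order. The genes Gm26917 and Gm42418 together held 7.08%, 12.5%, 5.94% and 11.3% of the column totals, and they were kept wherever columns were rescaled to equal totals. A range in parentheses after a level or a fold is its 95% interval, from counting error alone. In the order CD103int DC, cDC1, cDC2 and macrophage, which holds wherever 4 values follow each other, 12 macrophage markers summed to 3394, 982, 4846 and 4639 CPM. All 12 were lowest in cDC1. The library labelled cDC2 thus held a sum of these markers close to that of the macrophage library, but through different genes. Of the 12, 6 were highest in macrophages, 5 in cDC2 and 1 in CD103int DC. Those highest in cDC2 included C1qa (228, 36.7, 572 and 105 CPM), C1qb (328, 49.1, 631 and 137 CPM) and C1qc (191, 32.4, 450 and 88.4 CPM). The 6 monocyte markers summed to 1235, 976, 1287 and 5203 CPM, the 9 cDC1 markers to 1002, 1903, 835 and 773 CPM and the 8 cDC2 markers to 2719, 1486, 2337 and 2566 CPM. Although the last sum was lowest in cDC1, 4 of the 8 cDC2 markers were highest there, namely Cd209a (78.8, 257, 31.5 and 68.9 CPM), Clec10a (65.2, 191, 44.2 and 57.7 CPM), Irf4 (71.6, 152, 38 and 49.9 CPM) and Cd7 (7.52, 97.1, 11 and 8.48 CPM). The library labelled cDC2 was highest for 0 of the 8 and lowest for 3, which were Cd209a, Clec10a and Irf4. The cDC1 library also had the highest sum of 5 markers of plasmacytoid DC (133, 713, 172 and 261 CPM), with 4 of the 5 highest there, and the highest level of the B cell gene Ighm (22.4, 148, 30.4 and 73 CPM). Its sums of 4 endothelial markers (111, 478, 174 and 305 CPM) and 3 epithelial or tumour cell markers (199.8, 425, 120.1 and 89.9 CPM) were highest too, but in cDC1 each was mostly 1 gene, Kdr at 425 CPM and Cdh1 at 416 CPM. The endothelial marker Pecam1 was lowest in cDC1 (35.3, 29.7, 54.2 and 57.5 CPM), and Vwf was highest in CD103int DC (10.1, 6.40, 7.93 and 5.81 CPM). The 6 pan-DC markers summed to 16226, 11712, 16121 and 7102 CPM. H2-Ab1 (5454, 3660, 5553 and 2146.5 CPM) and Cd74 (9384, 6832, 9057 and 4334 CPM) made up most of these sums. Of the 6, 3 were highest in cDC1, 2 in cDC2 and 1 in CD103int DC. Those in cDC1 were Flt3 (21, 179, 15.8 and 32.6 CPM), Zbtb46 (47.5, 152, 22 and 20.9 CPM) and Dpp4 (38.6, 119, 35.2 and 51.7 CPM). The 2 neutrophil markers summed to 35.4, 9.99, 63.9 and 158 CPM, while T cell, NK cell, fibroblast and erythroid lists stayed at or below 43.7 CPM. The macrophage column carried a name prefix of its own, and if that prefix stands for a batch, batch and population cannot be told apart.

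The sequence upstream of 5 members is shown because each separates the libraries within its substrate class. Each is the 250 bases before the transcription start in RefSeq (GRCm38.p6), 5′ to 3′ on the strand of the gene. The windows are chr3:90389939-90390188 for Slc27a3 and chr3:50443614-50443863 for Slc7a11, both on the minus strand. On the plus strand they are chr11:120948817-120949066 for Slc16a3, chr1:191906531-191906780 for Slc30a1 and chr2:122426185-122426434 for Slc28a2. Capitals mark matches on either strand to 1 of the 6 motifs searched per gene. The motif is TGATGNAA, an amino acid response element, in Slc7a11 and ACGTG, the core of a hypoxia response element, in Slc16a3. It is TGCACNC, the core of a metal response element, in Slc30a1 and GAGGAA, a box recognised by the myeloid factor PU.1, in Slc28a2. The Slc30a1 window also matched GAGGAA at base 85 and TGACNNNGC, an antioxidant response element, at base 169, counted from its 5′ end, and these are left in lower case. Nothing is marked in Slc27a3, which matched none of the motifs searched. A match describes letters and not a bound site. The start of Slc28a2 in RefSeq was not found in a GENCODE transcript of that gene.
Slc27a3: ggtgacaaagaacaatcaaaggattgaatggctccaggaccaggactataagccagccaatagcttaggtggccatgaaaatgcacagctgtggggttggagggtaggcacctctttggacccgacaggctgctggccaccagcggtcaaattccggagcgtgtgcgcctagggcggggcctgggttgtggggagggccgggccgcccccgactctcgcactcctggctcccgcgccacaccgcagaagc
Slc7a11: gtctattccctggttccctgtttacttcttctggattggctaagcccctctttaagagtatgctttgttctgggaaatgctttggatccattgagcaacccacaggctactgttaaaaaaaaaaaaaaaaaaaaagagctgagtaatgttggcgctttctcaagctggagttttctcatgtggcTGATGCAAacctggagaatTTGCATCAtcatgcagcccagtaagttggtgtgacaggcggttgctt
Slc16a3: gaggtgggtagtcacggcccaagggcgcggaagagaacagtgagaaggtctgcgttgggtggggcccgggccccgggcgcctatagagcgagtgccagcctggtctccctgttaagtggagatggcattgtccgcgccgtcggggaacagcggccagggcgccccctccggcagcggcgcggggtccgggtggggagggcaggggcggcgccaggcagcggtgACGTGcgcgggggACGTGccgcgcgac
Slc30a1: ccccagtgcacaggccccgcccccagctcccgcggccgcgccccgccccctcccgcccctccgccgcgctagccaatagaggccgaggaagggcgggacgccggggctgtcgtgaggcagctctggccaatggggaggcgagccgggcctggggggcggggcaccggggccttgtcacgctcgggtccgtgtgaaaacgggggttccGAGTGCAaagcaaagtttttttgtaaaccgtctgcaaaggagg
Slc28a2: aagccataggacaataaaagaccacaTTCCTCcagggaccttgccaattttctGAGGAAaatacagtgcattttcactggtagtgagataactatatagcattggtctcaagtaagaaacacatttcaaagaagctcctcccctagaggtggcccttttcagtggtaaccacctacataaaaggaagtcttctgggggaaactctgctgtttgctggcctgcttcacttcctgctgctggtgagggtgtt

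Over all members, CD103int DC lay nearest to cDC2 and cDC1 lay farthest from the rest. Against cDC1, 23 of 161 members (14.3%) were at least 2-fold higher in CD103int DC and 6 (3.73%) at least 2-fold lower, taken on log2(CPM + 1) with 5 CPM or more in the higher library. Among the 10255 genes that reached 5 CPM in any library, 9.16% were higher and 6.13% lower by this rule. At 4-fold the members gave 10 and 3, and all genes 2.7% and 1.85%. The median log2 difference was 0.21 over the members and 0.03 over all genes.

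Against cDC2, 3 members, Slc27a3, Slc9a4 and Slc52a3, were 2-fold higher in CD103int DC and 0 lower, where all genes gave 1.78% and 0.731%. At 4-fold, 1 was higher and 0 lower, with 0.195% and 0.107% of all genes. Against macrophages, 9 members were 2-fold higher in CD103int DC and 11 lower, with 4.85% and 7.3% of all genes. At 4-fold this gave 2 and 2, with 0.751% and 1.15% of all genes. These comparisons share the CD103int DC library.

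**Figure D1:**
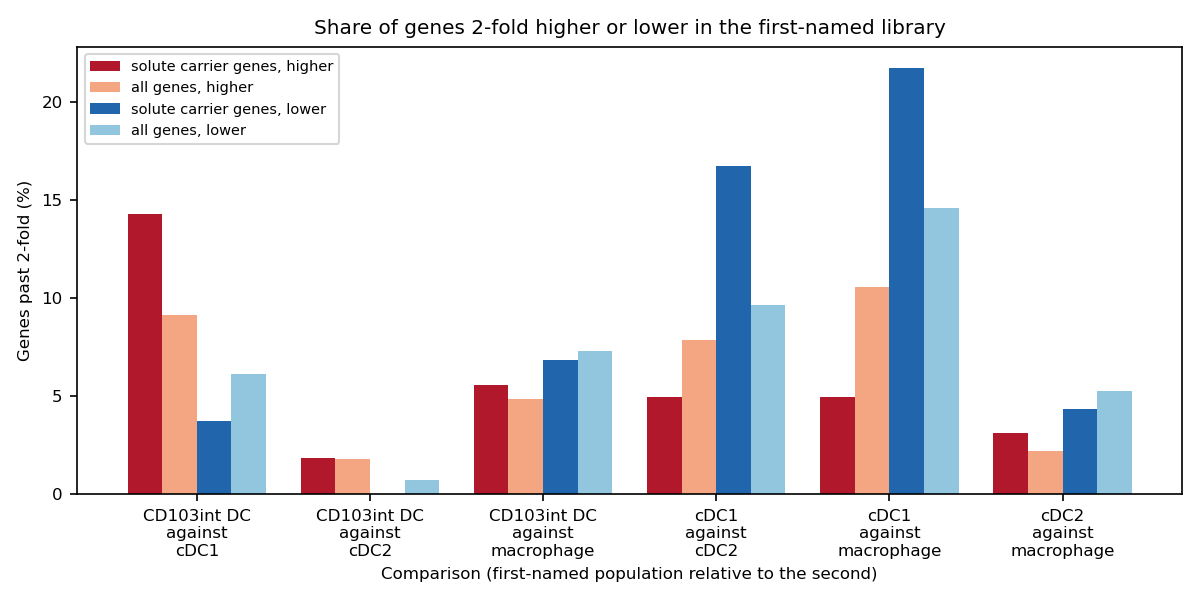
Share of the 161 solute carrier genes and of all 10255 genes at 5 CPM or more that were 2-fold higher or lower in the first-named library (percent), for the 6 pairs of libraries. The largest shares of solute carrier genes are those lower in cDC1 than in cDC2 (16.8%) and than in macrophages (21.7%).

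The cDC1 library had the lowest of the 4 levels for 81 of the 161 members (50.3%), and for 37.6% of all genes. The order depended on the scaling. With equal column totals cDC1 were lowest for 61 members and macrophages for 63, against 26.1% and 50.9% of all genes. Against cDC2, 8 members were 2-fold higher in cDC1 and 27 lower, with 7.86% and 9.64% of all genes. At 4-fold this gave 3 and 12, with 2.22% and 3.48% of all genes. Against macrophages, 8 were 2-fold higher in cDC1 and 35 lower, with 10.6% and 14.6% of all genes, but rescaling the columns to equal totals gave 20 higher and 18 lower. At 4-fold the deposited scale gave 3 and 10, with 2.55% and 5.24% of all genes. The macrophage markers were lowest in cDC1 too, and their part in these counts was not tested. In bulk RNA, fewer cells of a type and less RNA per cell cannot be told apart.

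Against macrophages, 5 members were higher and 7 lower in cDC2 at 2-fold (2.21% and 5.29% of all genes). With equal column totals the balance turned, to 8 higher and 3 lower. At 4-fold, 0 were higher and 0 lower (0.244% and 0.497% of all genes).

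Members set apart in 1 library, 2-fold beyond each of the other 3, were mostly low in cDC1. There, 21 members (13%) lay below every other library, where all genes gave 6.78%, and 4 (Slc7a5, Slc2a3, Slc52a3 and Slc14a1) lay above, where all genes gave 4.27%. In CD103int DC, 2 members (Slc27a3 and Slc9a4) lay above and 0 below, with 0.39% and 0.0975% of all genes. In macrophages, 5 lay above (Slc28a2, Slc30a1, Slc12a2, Slc15a2 and Slc25a22) and 0 below, with 3.58% and 0.731% of all genes, but with equal column totals 2 lay above and 3 below. In cDC2 there were 0 above and 0 below, with 0.195% and 0.146% of all genes.

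**Figure D2:**
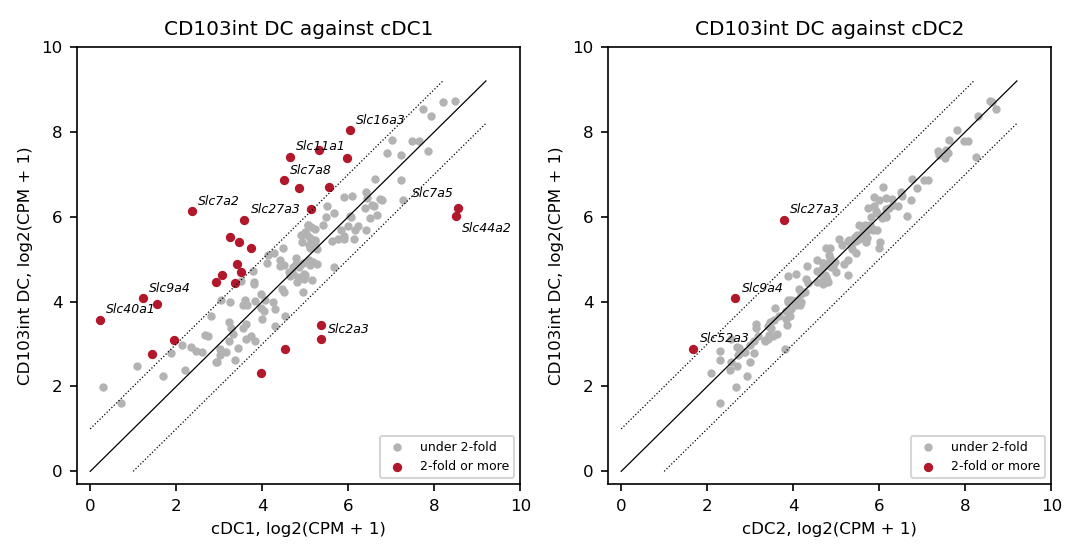
Level of each of the 161 solute carrier genes in CD103int DC (y axis) against cDC1 (left) and cDC2 (right, x axes), as log2(CPM + 1), with 1 library per axis. Solid lines mark equal levels, dotted lines 2-fold, and grey points beyond them are under 5 CPM in both libraries. Against cDC1, 23 genes are 2-fold higher and 6 lower, and against cDC2 3 are higher.

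Among the fatty acid carriers, 1 gene was high in CD103int DC alone. Slc27a3 encodes a member of the fatty acid transport protein family that joins fatty acids to coenzyme A (ENSMUSG00000027932.14, GRCm38 chromosome 3, 90385239 to 90389938, minus strand). Its level was 60.2 CPM (58.2 to 62.2) in CD103int DC, 11 CPM (10.1 to 12) in cDC1, 12.7 CPM (11.7 to 13.8) in cDC2 and 6.03 CPM (5.39 to 6.72) in macrophages. CD103int DC stood 5.46-fold (4.99 to 5.99) above cDC1, 4.72-fold (4.33 to 5.16) above cDC2 and 9.98-fold (8.91 to 11.2) above macrophages. The paralogues Slc27a4, with 25.3, 12.8, 22.3 and 19.1 CPM, and Slc27a1, with 20.9, 13.1, 22.6 and 15 CPM, did not differ 2-fold between any pair. Per kilobase of exon, Slc27a3 made up 71.5% of the summed level of the 3 genes in CD103int DC, 45.5% in cDC1, 35.7% in cDC2 and 25.4% in macrophages.

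Of 10 other genes of fatty acid handling, 5 were 2-fold higher and 0 lower in CD103int DC than in cDC1, 0 were higher and 0 lower than in cDC2, and 2 were higher and 1 lower than in macrophages. Of all genes, 9.16% and 6.13% were higher and lower against cDC1, 1.78% and 0.731% against cDC2 and 4.85% and 7.3% against macrophages. The lipoprotein lipase gene Lpl had 859.8, 49.3, 748 and 239 CPM, the fatty acid receptor gene Cd36 188, 65.6, 162 and 89.3 CPM and the lipid droplet gene Plin2 345, 107, 403 and 596 CPM. Lpl and Cd36 were highest in CD103int DC, within 2-fold of cDC2, and Plin2 was highest in macrophages.

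Of the amino acid carriers, Slc7a2 and Slc16a10 had the widest ranges over the libraries, 3.77 and 3.15 on log2(CPM + 1). The 5 light chains of Slc3a2 ranged between 0.25 for Slc7a6 and 2.92 for Slc7a8. Slc3a2 is the heavy chain that brings several light chains to the cell surface, and it had 219, 178, 268 and 319 CPM, with no pair 2-fold apart. Slc7a5 is the light chain for large neutral amino acids such as leucine (ENSMUSG00000040010.10, GRCm38 chromosome 8, 121881150 to 121907694, minus strand). Its level was 73.4 CPM (71.2 to 75.6) in CD103int DC, 373 CPM (367 to 378) in cDC1, 73.6 CPM (71.1 to 76.1) in cDC2 and 52.4 CPM (50.5 to 54.4) in macrophages. The cDC1 library alone was high, with CD103int DC 5.08-fold (4.91 to 5.25) below it. In the cDC1 library 4 of 5 plasmacytoid DC markers were highest as well, and their part in this difference was not tested.

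None of the other 4 light chains was 2-fold higher in cDC1 than in another library. Slc7a11, which takes up cystine in exchange for glutamate (ENSMUSG00000027737.10, GRCm38 chromosome 3, 49892526 to 50443614, minus strand), had 189 CPM in CD103int DC, 39 CPM in cDC1, 187 CPM in cDC2 and 81 CPM in macrophages. CD103int DC and cDC2 shared the high level, and CD103int DC stood 4.86-fold (4.62 to 5.10) above cDC1 and 2.34-fold (2.26 to 2.42) above macrophages. Slc7a8, a further carrier of neutral amino acids, was low in cDC1 alone, at 115 CPM in CD103int DC, 21.6 CPM in cDC1, 132 CPM in cDC2 and 170.1 CPM in macrophages. Slc7a7, which exchanges cationic for neutral amino acids, had 34.5, 18.3, 42.9 and 47.2 CPM, and its relative Slc7a6 had 12.8, 15.4, 13.1 and 12.9 CPM.

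Per kilobase of exon, Slc7a5 made up 28.4% of the 5 light chains in CD103int DC, 86.3% in cDC1, 26.3% in cDC2 and 19.9% in macrophages. In CD103int DC, Slc7a8 had the largest share, at 33.1%, and Slc7a11 had 19.5%. The annotated exons of Slc7a11 add up to 13922 bases, so its level per kilobase is too low if shorter transcripts prevailed. In CPM not divided by length, a measure added after the data were seen, Slc7a11 had the largest share in CD103int DC, at 44.5%, and Slc7a5 still held 79.8% in cDC1.

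**Figure D3:**
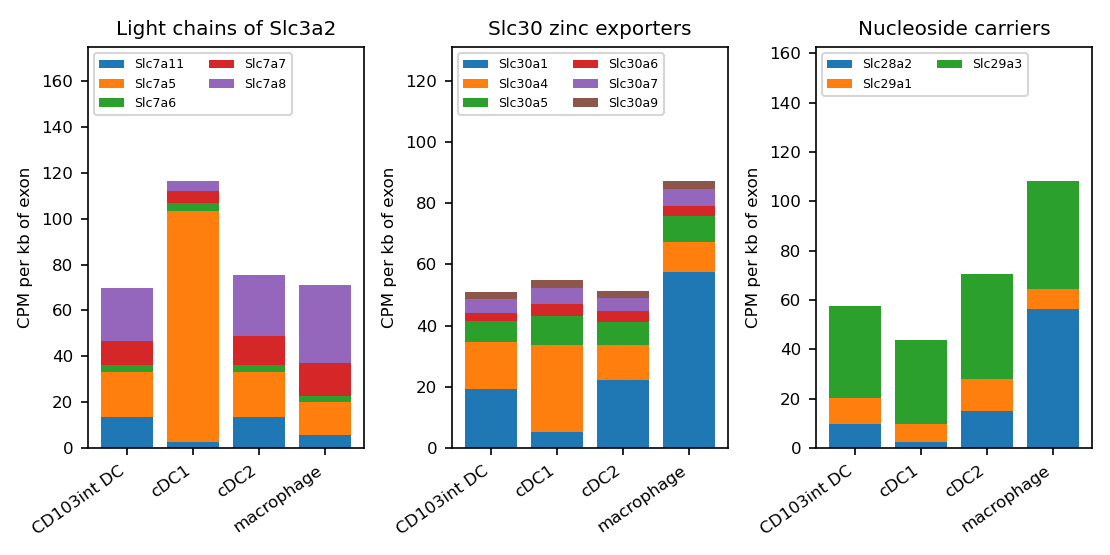
Levels of groups of carriers, stacked by gene (CPM per kilobase of exon), in CD103int DC, cDC1, cDC2 and macrophages, with 1 library each. Slc7a5 makes up 86.3% of the light chains in cDC1, and in macrophages Slc30a1 makes up 65.8% of the zinc exporters and Slc28a2 52% of the nucleoside carriers.

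Arginine and other cationic amino acids enter through Slc7a1 and Slc7a2. Slc7a2 had 69.3 CPM (67.2 to 71.5) in CD103int DC, 4.16 CPM (3.61 to 4.77) in cDC1, 59.6 CPM (57.4 to 61.9) in cDC2 and 21.7 CPM (20.5 to 23) in macrophages. CD103int DC and cDC2 were high and cDC1 was low, with CD103int DC 16.7-fold (14.5 to 19.3) above cDC1 and 3.19-fold (2.99 to 3.41) above macrophages. Exons of Gm26584 overlap those of Slc7a2 on the other strand by 635 bases, and whether counting used strand is not known. Opposite-strand exons overlap other members too, among them Slc43a2 (by 922 bases), Slc30a1 (468), Slc11a2 (402) and Slc37a2 (241). Slc7a1 had 84.9, 106, 77.9 and 72.5 CPM, with no pair 2-fold apart. Arg1, which degrades arginine, had 96.2 CPM in CD103int DC, 0.673 CPM in cDC1, 59.7 CPM in cDC2 and 48 CPM in macrophages. Il4i1, an amino acid oxidase gene of DC, had 27.6, 264, 27.5 and 41.7 CPM and like Slc7a5 was highest in cDC1.

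Several other amino acid members were low in cDC1. Slc16a10, a carrier of aromatic amino acids, had 23.6 CPM in CD103int DC, 7.38 CPM in cDC1, 37.8 CPM in cDC2 and 73.2 CPM in macrophages, so CD103int DC lay between cDC1 and the other libraries. Slc36a1, which moves small amino acids out of lysosomes, had 44.8, 8.50, 42.1 and 40.6 CPM, and Slc43a2, a carrier of neutral amino acids, 165, 61.7, 184 and 205 CPM. Both were 2-fold below every other library in cDC1. Slc38a7, a lysosomal glutamine carrier, had 21.2, 10.3, 26 and 23.7 CPM. Slc38a2, a sodium-coupled carrier of glutamine and alanine, was instead highest in macrophages, at 175, 148, 167 and 346 CPM. The glutamine carrier gene Slc1a5 (75, 96.5, 58 and 50.4 CPM) was highest in cDC1. So were Slc38a1 (188, 229, 164 and 182 CPM) and Slc38a9 (30.4, 33.2, 22.3 and 29.1 CPM). These genes and the taurine carrier gene Slc6a6, at 424, 358, 378 and 423 CPM, did not differ 2-fold in any pair.

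Of the 20 amino acid members, 6 were 2-fold higher and 1 lower in CD103int DC than in cDC1, 0 were higher and 0 lower than in cDC2, and 2 were higher and 1 lower than in macrophages. The shares of all genes were 9.16% and 6.13% against cDC1, 1.78% and 0.731% against cDC2 and 4.85% and 7.3% against macrophages, so that 0 of 20 is near the share of all genes. In cDC1, 1 was higher and 9 lower than in cDC2, with 7.86% and 9.64% of all genes. Of 12 partner genes of amino acid metabolism at 5 CPM or more, 2 were 2-fold higher and 1 lower in CD103int DC than in cDC1.

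The glucose carriers differed in Slc2a3 and not in Slc2a1. Slc2a1, the widespread glucose carrier, had 223 CPM in CD103int DC, 128 CPM in cDC1, 196 CPM in cDC2 and 222 CPM in macrophages, with no pair 2-fold apart. Slc2a3, which has a high affinity for glucose, had 7.68 CPM (6.98 to 8.43) in CD103int DC, 40.5 CPM (38.7 to 42.3) in cDC1, 4.83 CPM (4.22 to 5.50) in cDC2 and 9.07 CPM (8.29 to 9.91) in macrophages. It was high in cDC1 alone, with CD103int DC 5.27-fold (4.75 to 5.85) lower. Per kilobase, Slc2a1 still held 79.5% of the 4 Slc2 glucose carriers in CD103int DC, 59.7% in cDC1, 81.3% in cDC2 and 73.6% in macrophages. Slc37a2, which exchanges glucose 6-phosphate for phosphate, had 37.6, 12.3, 63.1 and 43.4 CPM and was 2-fold below every other library in cDC1. Among the 9 members, 0 were higher and 0 lower by 2-fold in CD103int DC than in cDC2, and 0 and 0 than in macrophages, where all genes gave 1.78% and 0.731% against cDC2 and 4.85% and 7.3% against macrophages. Of 9 genes of glucose use, 1 was 2-fold higher and 0 lower in CD103int DC than in cDC1, near the 9.16% and 6.13% of all genes. It was the hexokinase gene Hk3, which had 175, 44.9, 228 and 283 CPM.

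The lactate carriers were led by Slc16a3, which exports lactate from glycolytic cells (ENSMUSG00000025161.16, GRCm38 chromosome 11, 120948480 to 120960868, plus strand). Its level was 264 CPM (259.5 to 268) in CD103int DC, 64.7 CPM (62.5 to 67) in cDC1, 221 CPM (217 to 226) in cDC2 and 309 CPM (304 to 313) in macrophages. The cDC1 library was low, with CD103int DC 4.07-fold (3.92 to 4.23) above it. Slc16a1, which moves lactate in either direction, had 20.5, 9.36, 19.2 and 16.3 CPM, and CD103int DC lay 2.19-fold (1.97 to 2.45) above cDC1, a difference that came under 2-fold on log2(CPM + 1) with equal column totals. Slc16a7, which has a high affinity for pyruvate, was highest in macrophages, at 8.38, 9.05, 11.4 and 21.6 CPM. Per kilobase, Slc16a3 made up 90.3% of the 3 in CD103int DC, 80.9% in cDC1, 88.7% in cDC2 and 91.3% in macrophages. Of 5 partner genes, 2 were 2-fold higher and 0 lower in CD103int DC than in cDC1, with 9.16% and 6.13% of all genes. Emb and Bsg, chains that escort these carriers to the membrane, had 202, 67.5, 185 and 191 CPM and 131, 95.2, 134 and 94.9 CPM. The hydroxycarboxylic acid receptor gene Hcar2 had 45.5, 11.9, 60.1 and 52.6 CPM and the lactate dehydrogenase gene Ldha 840.4, 634, 746 and 587 CPM.

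The iron carriers Slc11a1 and Slc40a1 were low in cDC1. Slc11a1, which pumps iron and manganese out of the phagosome, had 169.8 CPM in CD103int DC, 23.9 CPM in cDC1, 303 CPM in cDC2 and 263 CPM in macrophages. CD103int DC was 7.10-fold (6.68 to 7.55) above cDC1 and less than 2-fold below cDC2 and macrophages. The summed macrophage markers had the same order, and their part was not tested. Slc40a1, ferroportin, which exports iron from the cell, had 10.9 CPM (10.1 to 11.8) in CD103int DC, 0.163 CPM (0.0704 to 0.321) in cDC1, 10.7 CPM (9.75 to 11.7) in cDC2 and 8.61 CPM (7.85 to 9.43) in macrophages. Only cDC1, with 8 estimated reads, was near 0, and CD103int DC lay 67-fold (33.8 to 156) above it.

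Slc48a1, which moves heme out of the phagolysosome, was highest in CD103int DC, at 103 CPM in CD103int DC, 45.8 CPM in cDC1, 66.9 CPM in cDC2 and 39.5 CPM in macrophages. It was 2.24-fold (2.14 to 2.36) higher in CD103int DC than in cDC1 and 2.61-fold (2.48 to 2.74) higher than in macrophages. Hmox1, which degrades heme, had 210.3, 38.1, 152 and 164 CPM, and Steap3, an endosomal iron reductase, 46.3, 3.63, 26 and 12.6 CPM. Both were highest in CD103int DC, as Slc48a1 was. Slc11a2, which brings iron out of the endosome, had 24.9, 10.4, 31 and 32.4 CPM, and the ferritin heavy chain gene Fth1 2273, 987, 3386 and 2298 CPM. The transferrin receptor gene Tfrc, for iron uptake, was highest in cDC1, at 34.7, 64.1, 33.4 and 32.8 CPM.

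Among the zinc carriers, Slc30a1 separated macrophages from the DC. It exports zinc across the plasma membrane (ENSMUSG00000037434.7, GRCm38 chromosome 1, 191906767 to 191913247, plus strand) and had 101 CPM (98.9 to 104) in CD103int DC, 28.1 CPM (26.7 to 29.7) in cDC1, 116 CPM (113 to 119) in cDC2 and 301 CPM (297 to 306) in macrophages. CD103int DC was 3.61-fold (3.40 to 3.83) above cDC1 and 2.97-fold (2.88 to 3.06) below macrophages. Mt1, a metallothionein gene that like Slc30a1 is induced by zinc, had 39.3 CPM in CD103int DC, 6.75 CPM in cDC1, 17.9 CPM in cDC2 and 7.05 CPM in macrophages. Any part of zinc in the levels of either gene was not tested. Slc30a4, a zinc carrier of endosomes, was highest in cDC1, at 83.1, 154, 62.8 and 54.5 CPM. The importer gene Slc39a1 had 179, 118, 192 and 203 CPM, and none of the 9 Slc39 members differed 2-fold between CD103int DC and another library. The magnesium carrier gene Slc41a2 had 24.3, 30.4, 15.7 and 8.10 CPM and the copper carrier gene Slc31a2 30.5, 20.5, 37.5 and 57 CPM. Of the 24 metal and heme members, 5 were 2-fold higher and 0 lower in CD103int DC than in cDC1, 0 were higher and 0 lower than in cDC2, and 2 were higher and 1 lower than in macrophages. The shares of all genes higher and lower were 9.16% and 6.13%, 1.78% and 0.731% and 4.85% and 7.3% in these comparisons, and the counts against cDC2 and macrophages lay near them. Of 12 partner genes at 5 CPM or more, 6 were higher and 0 lower in CD103int DC than in cDC1, and 2 and 0 than in cDC2.

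On log2(CPM + 1), the nucleoside carriers held the member with the widest range of all 161, Slc28a2, though as a ratio of CPM Slc40a1 ranged more widely. Slc28a2, which concentrates purine nucleosides together with sodium (ENSMUSG00000027219.13, GRCm38 chromosome 2, 122426477 to 122461137, plus strand), had 41.4 CPM (39.8 to 43.1) in CD103int DC, 10.03 CPM (9.16 to 11) in cDC1, 64.3 CPM (62 to 66.6) in cDC2 and 237 CPM (233 to 241) in macrophages. CD103int DC was 4.13-fold (3.75 to 4.56) above cDC1 and 5.72-fold (5.48 to 5.98) below macrophages. All 6 monocyte markers were highest in macrophages too, and 4 of them were lowest in cDC1, while Ly6c2 (132, 233, 236 and 1371 CPM) and Plac8 (128, 486, 218 and 1276 CPM) were lowest in CD103int DC. Their part was not tested. Slc29a3, a carrier of the lysosome, had 219, 200.1, 248 and 256 CPM and Slc29a1, an equilibrative carrier of the plasma membrane, 41.3, 29.3, 51 and 32.8 CPM, with no pair 2-fold apart for either. The nucleobase carrier gene Slc43a3 had 5.12, 9.36, 3.95 and 2.86 CPM. Per kilobase, Slc28a2 made up 17.1% of the 3 nucleoside carriers in CD103int DC, 5.42% in cDC1, 21.7% in cDC2 and 52% in macrophages. Pnp, which splits purine nucleosides, had 237, 171, 266 and 469 CPM, and Dck, which phosphorylates deoxynucleosides, 103, 115, 113 and 282 CPM, both highest in macrophages. The thymidine kinase gene Tk1 (26.1, 38.2, 17.2 and 13.4 CPM) and the adenosine kinase gene Adk (9.67, 16.3, 6.73 and 6.94 CPM) were instead highest in cDC1. Of 6 partner genes at 5 CPM or more, 1 was 2-fold higher and 0 lower in CD103int DC than in cDC1, with 9.16% and 6.13% of all genes. Against macrophages, 0 were higher and 2 lower in CD103int DC, with 4.85% and 7.3% of all genes. In cDC1, 2 were higher and 3 lower than in macrophages, with 10.6% and 14.6% of all genes.

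**Figure D4:**
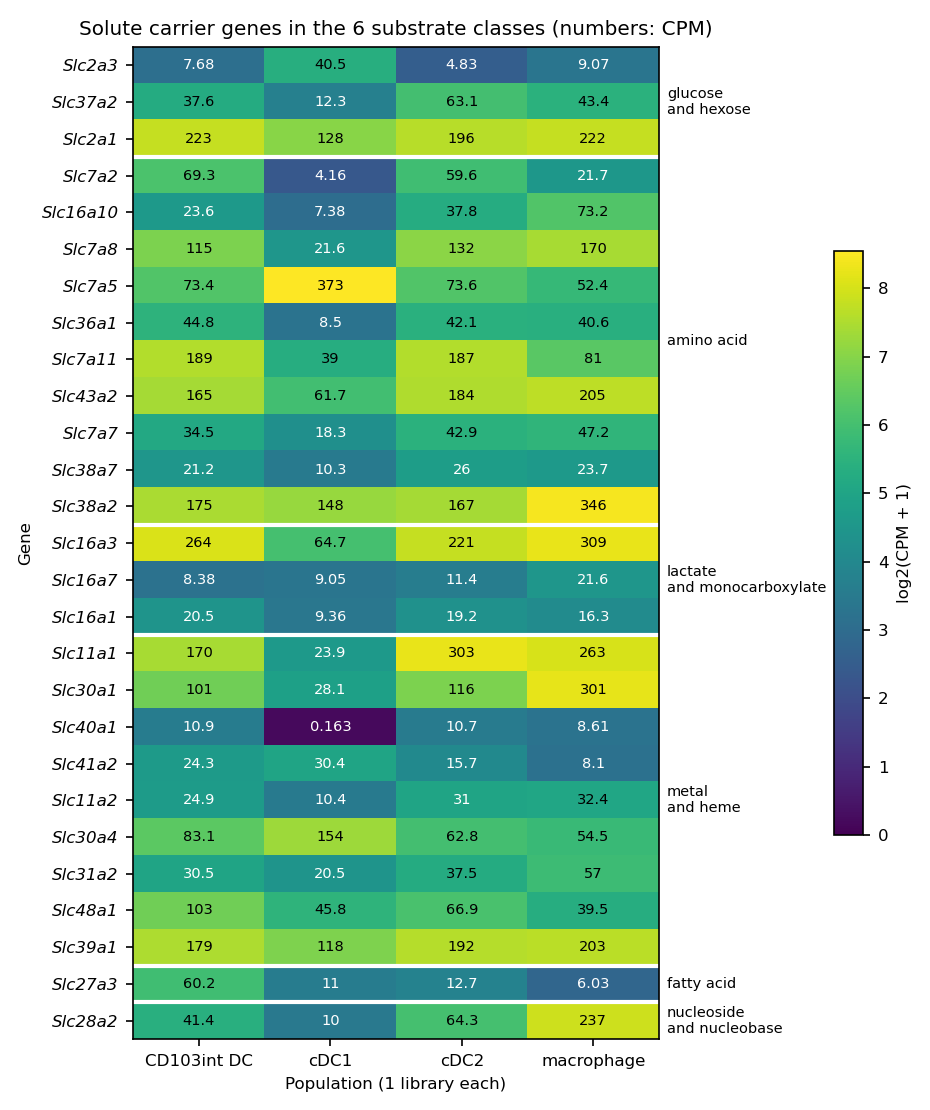
Levels of the named solute carrier genes of the 6 substrate classes (rows) in the 4 libraries (columns), as log2(CPM + 1) in colour with CPM printed. The cDC1 column is lowest in most rows and highest for Slc7a5 (373 CPM), Slc2a3 (40.5 CPM), Slc30a4 (154 CPM) and Slc41a2 (30.4 CPM).

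Outside these classes, Slc9a4, a sodium and proton exchanger, was high in CD103int DC alone, at 16 CPM in CD103int DC, 1.35 CPM in cDC1, 5.28 CPM in cDC2 and 1.997 CPM in macrophages. It stood 11.9-fold (9.25 to 15.5) above cDC1, 3.03-fold (2.63 to 3.50) above cDC2 and 8.01-fold (6.56 to 9.86) above macrophages, though its exons overlap opposite-strand exons of Gm35801 and Gm37435. The riboflavin carrier gene Slc52a3 had 6.43, 22.2, 2.20 and 4.01 CPM, highest in cDC1, and was 2.92-fold (2.34 to 3.68) higher in CD103int DC than in cDC2. The choline carrier-like gene Slc44a2 had 64 CPM in CD103int DC, 362 CPM in cDC1, 98.8 CPM in cDC2 and 214 CPM in macrophages, and CD103int DC lay 5.66-fold (5.46 to 5.86) below cDC1. Slc14a1, a urea carrier, was high in cDC1 alone, at 4.02, 14.8, 3.26 and 4.07 CPM.

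Several further members were 2-fold below every other library in cDC1. They included the dicarboxylate carrier gene Slc13a3 (14.3, 1.94, 16.6 and 7.04 CPM), the vitamin C carrier gene Slc23a2 (71.7, 34.1, 70.8 and 73.7 CPM), Slc4a11 (21, 6.56, 24.1 and 18.2 CPM), Slc35b3, which brings the sulphate donor of glycans into the Golgi (7.54, 2.83, 9.21 and 11.6 CPM), and Slc35f5 (28.4, 9.64, 28.3 and 30.7 CPM). For Slc23a2 every one of these differences came under 2-fold with equal column totals. Macrophages were highest for the sodium, potassium and chloride carrier gene Slc12a2 (6.32, 7.11, 12.9 and 32 CPM), the peptide carrier gene Slc15a2 (4.999, 6.75, 4.85 and 17.4 CPM) and the mitochondrial glutamate carrier gene Slc25a22 (27.1, 27.8, 29.6 and 71 CPM). Each of these came within 2-fold of macrophages in at least 1 other library with equal column totals.

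Mitochondrial carriers varied least among the transporter classes. Their 28 members had a median range over the libraries of 0.47 on log2(CPM + 1), the 20 amino acid carriers 1.22, all 161 members 0.78 and all genes at 5 CPM or more 0.71. Between CD103int DC and cDC1, 0 were 2-fold higher and 0 lower, with 9.16% and 6.13% of all genes. Against macrophages, 2 were 2-fold higher and 1 lower in CD103int DC, with 4.85% and 7.3% of all genes. The adenine nucleotide carrier gene Slc25a4 (73.4 CPM in CD103int DC and 33.1 CPM in macrophages) and the aspartate and glutamate carrier gene Slc25a13 (27.7 and 12.3 CPM) were higher. Slc25a22 (27.1 and 71 CPM) was lower. Slc25a5, another adenine nucleotide carrier, had the highest level per kilobase of all members in each library, at 253, 178, 238 and 194 CPM per kilobase.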

How the data were processed

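Per the table's name, the authors deposited a signal of filtered CPM on TMM-adjusted library sizes, for 13976 genes. Columns summed to 974649 (CD103int DC), 905670 (cDC1), 968810 (cDC2) and 1169350 (macrophage). Per the labels' protocols, DNase I removed genomic DNA and the library kit was directional. The aligner, counter, strand setting and genome build are not stated there. All identifiers and symbols matched GENCODE M21 (GRCm38), which gave positions and the length of the union of exons.

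The value of 1 estimated read was the step of which 70.6% to 79% of values above 0 were whole multiples within 0.001. Intervals were Poisson for levels and binomial for folds. Folds are ratios of CPM, and differences used log2(CPM + 1). Python 3.11.15, numpy 2.4.6, pandas 2.3.3 and scipy 1.17.1 were used. The code for the calls was tried on simulated counts with counting error alone. Changes well above 2-fold were put into well expressed genes of 1 library. That trial does not cover calls near 2-fold or near 5 CPM, nor error between replicates. Named by rule were, in the 6 substrate classes, members at 10 CPM that differed 2-fold in any pair and the highest per kilobase of each class, and elsewhere members at 10 CPM that differed 4-fold or were set apart in 1 library. Other members and partner genes given beside them were picked after their values were seen. Members and lists were chosen with earlier results of these data known. Alternatives covered scaling, pseudocount, minimum level and the mitochondrial carriers.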

Additional observations from a re-analysis of the deposited data

How the results depend on the processing

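No paired analysis was possible because each population had 1 library, and no library could be left out for the same reason. With columns rescaled to equal totals, the median of all genes shifted by 0.25 in CD103int DC against macrophages, 0.35 in cDC1 against macrophages, 0.26 in cDC2 against macrophages and -0.10 in CD103int DC against cDC1. The member median became 0.15 in CD103int DC against macrophages (-0.09 as deposited), 0.15 in cDC1 against macrophages (-0.20) and 0.18 in cDC2 against macrophages (-0.07), so its sign changed in each. Relative to all genes it was -0.14 in cDC1 against macrophages, and -0.15 as deposited. Counts became 20 higher and 18 lower at 2-fold and 6 lower at 4-fold in cDC1 against macrophages, 8 higher and 3 lower in cDC2 against macrophages, and 1 lower at 4-fold in CD103int DC against macrophages. Macrophages had 2 members set apart above and 3 below. Class medians against macrophages changed sign to 0.0554 (glucose) and 0.0354 (lactate) in CD103int DC, to 0.0792 (glucose), 0.118 (metal), 0.165 (fatty acid) and 0.106 (nucleoside) in cDC1, and to 0.0890 (glucose) in cDC2. The shift of all genes is the rescaling itself, and no other cause was tested.

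A pseudocount of 0.1 CPM gave 1 member 2-fold lower in CD103int DC than in cDC2 and 1 set apart below in macrophages. A pseudocount of 5 CPM gave, at 4-fold, 5 higher in CD103int DC than in cDC1, 0 higher than in cDC2, 1 higher and 1 lower than in macrophages, 5 lower in cDC1 than in cDC2, and 1 higher and 6 lower in cDC1 than in macrophages. It left 2 members 2-fold higher in cDC2 than in macrophages and 13 set apart below in cDC1. Without a minimum, 11 members were 2-fold lower in CD103int DC than in cDC1, with a median of 0.10, and 16 were higher in cDC1 than in macrophages. Of 114 named differences of 2-fold, 15 came under 2-fold with equal totals and 16 with a pseudocount of 5 CPM, and 0 changed direction. Median-ratio size factors, a minimum of 10 CPM and leaving out mitochondrial carriers moved none of the 38 summary values enough to count as a change.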

Other observations

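Upstream windows of 250 bases were found in RefSeq for 120 of the 161 members. ACGTG, on either strand, lay in 29.2% of these genes and in 16.6% of all 32851 windows, and TGATGNAA in 3.33% and 3.45%. The shares were 14.2% and 10.4% for TGCACNC, 22.5% and 12.5% for TGCGCNC, and 21.7% and 23.3% for GAGGAA. For TGACNNNGC, an antioxidant response element, 24 of the 120 genes matched, against 10.2% of all windows. Member shares count genes and the others count windows.

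Across the 161 members, log2(CPM + 1) in CD103int DC had a Pearson r of 0.82 with cDC1, 0.97 with cDC2 and 0.90 with macrophages. Over all 10255 genes r was 0.89, 0.98 and 0.93. Genes within a library share its depth and are no replicates.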
